A study of Homo sapiens with 14 samples.

Results

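The response of SIGM5 cells to TETi76 was taken from RNA sequencing of treated and solvent-treated cells. SIGM5 is a human acute myeloid leukaemia line of monocytic type, and TETi76 is a compound presented in the series as an inhibitor of the TET dioxygenases. The comparison took every gene of the SIGM5 count table that passed a filter on low counts, which were 11340 of 19196 listed genes. The TETi76 group was given 12.5 µM of the compound for 24 h, and the DMSO group was given the solvent for the same time. Each group had 2 libraries, made from poly(A) RNA. The labels give no TET2 genotype for SIGM5 and name no allele or further agent common to both groups. The remaining 10 libraries of the 14 were from K562, another myeloid leukaemia line, in 5 groups. Besides DMSO and TETi76, their treatments included ascorbate, alone or together with TETi76. The cells labelled K01, which do not carry the TET2-/- mark of the K18 cells, served to show where the SIGM5 response differed. For this the K01 groups given 12.5 µM TETi76 or DMSO for 24 h were compared. The ascorbate groups entered the K562 fit but were not compared here. The lines were grown in different media, IMDM for SIGM5 and RPMI for K562, so line and medium cannot be told apart. The labels number the replicates without saying that they were separate cultures, so p-values measure the spread between these libraries, which may be technical. In such bulk RNA, fewer cells of a type and less RNA per cell cannot be told apart.

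TET enzymes oxidise methylated cytosine in DNA, with iron and oxoglutarate as cofactors, and so take part in removing DNA methylation. TET2 is among the genes most often mutated in myeloid leukaemia. Myeloid cells make the proteases and peroxidase of azurophil granules early in maturation, and monocytes and macrophages later carry more integrins, pattern receptors and the superoxide-producing oxidase. NRF2, interferon-activated STAT factors, NF-kB and the metal sensor MTF1 each drive a well-known set of inducible genes, and these sets were examined together with the myeloid ones.

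The TETi76 libraries held 23639198 and 22897513 counts, and the DMSO libraries 18893636 and 21569319. Log2 CPM, the counts scaled to library size, correlated across genes at 0.993 between the TETi76 replicates and at 0.990 between the DMSO replicates. SIGM5 showed its labelled myeloid identity: all 17 myelomonocytic markers passed the filter, led by lysozyme (LYZ) at 10022 and 9698 CPM in the TETi76 libraries, against 9274 and 11408 CPM in the DMSO libraries. The summed level of these 17 markers was 22574 and 23168 CPM under TETi76 and 24705 and 24873 CPM under DMSO. Most of this sum was LYZ and myeloperoxidase (MPO), the latter at 7933 and 8813 CPM under TETi76, against 11710 and 9785 CPM under DMSO. By gene, the test described below called 6 of the 17 higher and 2 lower under TETi76, so the sum does not describe most of the markers. Of 11 erythroid markers 6 had no count in any library, and the erythroid sum stayed under 1 CPM. T and NK markers summed to 38.6 to 39.4 CPM under TETi76 and 35.7 to 36.2 CPM under DMSO, mostly NKG7 and CD4, while the T cell receptor chains CD3E and CD3G had no count. B markers summed to 19.6 to 21.4 CPM under TETi76 and 20.3 to 21.4 CPM under DMSO, nearly all of it PAX5, and MS4A1 had no count.

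At an adjusted p under 0.05, edgeR's quasi-likelihood test called 468 of the 11340 genes, or 4.13%. Of all genes tested, 2.58% were higher under TETi76 (293 genes) and 1.54% were lower (175 genes). These shares are the background for the call counts of the gene lists below. The median change of the called genes was 1.65-fold for the higher and 1.51-fold for the lower ones. Changes of at least 2-fold were seen in 72 higher and 34 lower genes. The median log2 change (TETi76 over DMSO, here and below) over all tested genes was 0.00, with 5691 positive and 5649 negative values. The libraries of the groups did not overlap in 46.2% of all tested genes, so absence of overlap alone says little about a gene. The filter kept genes with about 0.450 CPM in at least 2 libraries, and ATP1B1, at 0.437 CPM in its second highest library, lay just outside. Of the tested genes, 67 passed through the TETi76 libraries alone and 51 through the DMSO libraries alone, and 8 and 6 of these were called.

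The count of called genes moved with single libraries. It was 110 without TETi76 replicate 1 and 183 without TETi76 replicate 2, against 866 without DMSO replicate 1 and 1206 without DMSO replicate 2. In all 4 of these fits 96 genes were called, 72 of them higher and 24 lower under TETi76.

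**Figure D1:**
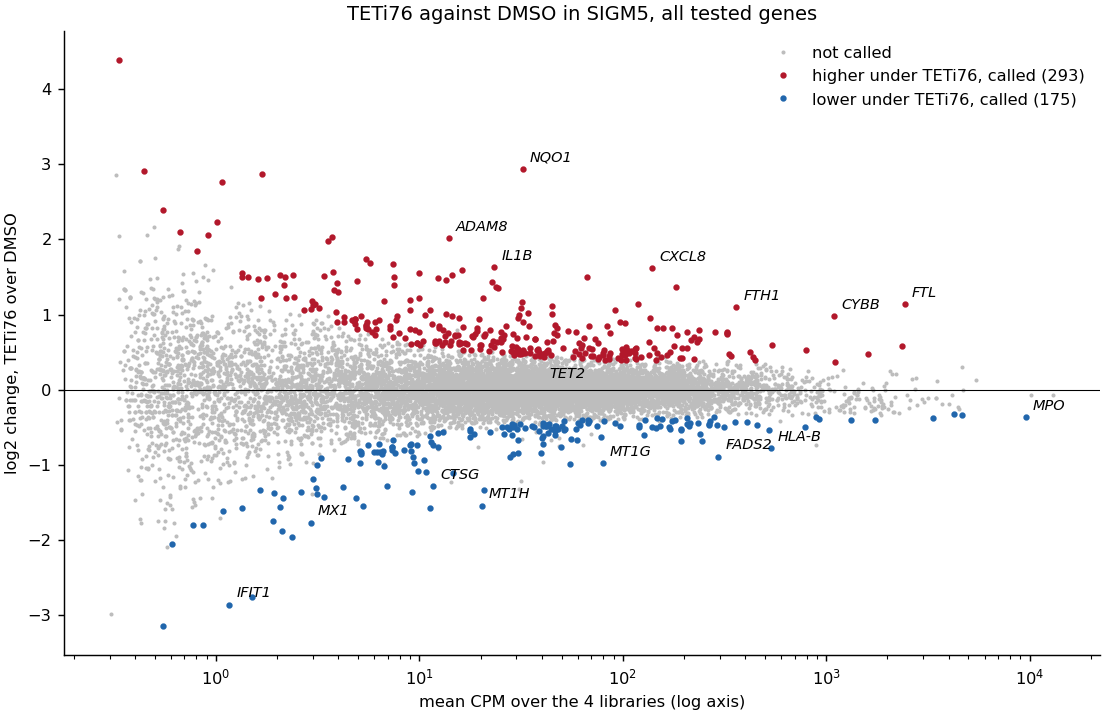
Log2 change of each of the 11340 tested genes (TETi76 over DMSO, vertical axis) against its mean level in CPM over the 4 libraries (log axis). Red points are the 293 genes called higher, blue points the 175 called lower and grey points the genes not called. NQO1 and FTL stand out above the cloud at their levels, and TET2 lies within it.

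TET transcripts, the products of the gene family that the compound is meant to inhibit, did not pass the test in either direction. TET2 stood at 42.6 and 39.2 CPM in the TETi76 libraries, against 38.2 and 40.1 CPM in the DMSO libraries (log2 0.06, SE 0.12, adjusted p = 0.863). TET3 stood at 147 and 145 CPM, against 146 and 137 CPM (log2 0.04, SE 0.11, adjusted p = 0.892). The levels of both overlapped between the groups. TET1 had 3.22 and 2.35 CPM in the TETi76 libraries, against 4.62 and 5.07 CPM in the DMSO libraries, with no overlap (log2 -0.80, SE 0.25, adjusted p = 0.0707). TET1 passed without DMSO replicate 1 (adjusted p = 0.0325), and over 12 alternative settings its adjusted p ran from 0.0148 to 0.511. A compound that blocks an enzyme need not change its transcript, so these levels do not test the inhibition.

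Of 17 tested genes of DNA methylation and demethylation, 2 fell and 0 rose, and the median log2 change was -0.10. The isocitrate dehydrogenase IDH2, a mitochondrial source of oxoglutarate and NADPH, had 110 and 121 CPM under TETi76, against 168 and 158 CPM under DMSO (log2 -0.49, SE 0.11, adjusted p = 0.00903). The de novo methyltransferase DNMT3A had 37.5 and 41.0 CPM, against 59.7 and 50.1 CPM (log2 -0.48, SE 0.13, adjusted p = 0.0277). Neither was called without TETi76 replicate 1 or without TETi76 replicate 2, and DNMT3A was also not called without DMSO replicate 1. Over 12 alternative settings the adjusted p ran up to 0.475 for IDH2 and 0.619 for DNMT3A. The maintenance methyltransferase DNMT1 did not pass (log2 -0.10, adjusted p = 0.684), nor did the cytosolic IDH1 (log2 -0.01, adjusted p = 0.991). Among 27 other tested dioxygenases that use iron and oxoglutarate, edgeR called 0, with 4 at an unadjusted p under 0.05, and DESeq2 also called 0. Over all tested genes, 1893 of 11340 had an unadjusted edgeR p under 0.05. The demethylases KDM2B (188 and 196 CPM, against 207 and 186 CPM) and KDM5C (178 and 186 CPM, against 213 and 185 CPM) overlapped between the groups.

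The genes with the largest increases at a level of at least 10 CPM under TETi76 were led by NQO1, the quinone reductase and a standard NRF2 target. NQO1 stood at 55.8 and 58.4 CPM in the TETi76 libraries, against 7.62 and 7.26 CPM in the DMSO libraries, a 7.67-fold difference (log2 2.94, SE 0.14, adjusted p = 6.44e-12). Then came ADAM8, a leukocyte metalloprotease, with 21.2 and 23.6 CPM, against 5.80 and 5.26 CPM (log2 2.02, SE 0.16, adjusted p = 6.31e-08). The serum- and glucocorticoid-induced kinase SGK1 had 11.7 and 10.8 CPM, against 3.382 and 3.67 CPM (log2 1.67). Absence of overlap between the groups was a condition for naming these genes. Each difference was many times the gap between replicates.

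THBS1, the matrix protein thrombospondin-1, had 25.2 and 23.8 CPM under TETi76, against 7.14 and 8.98 CPM under DMSO (log2 1.598). C3, the central complement component, had 10.8 and 11.2 CPM, against 4.29 and 3.54 CPM (log2 1.497). The inflammatory mediators IL1B, CXCL8 and CCL2, described below, were also among the 12 genes with the largest increases at 10 CPM or more. HIP1, a clathrin adaptor, had 15.3 and 14.5 CPM, against 5.26 and 4.93 CPM (log2 1.55). LSP1, an actin-binding protein of leukocytes, reached 91.2 and 106 CPM, against 34.6 and 34.8 CPM (log2 1.51). TARP, which lies in the T cell receptor gamma locus and shares sequence with it, had 18.6 and 17.6 CPM, against 6.23 and 6.70 CPM (log2 1.48), so its reads could come from either. The adjusted p-values of these 12 genes ran up to 0.0112, for CXCL8, and all 12 were called in each of the 4 fits that left out 1 library.

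The largest decreases at a DMSO level of at least 10 CPM were in WNT7B, a secreted WNT ligand. WNT7B had 5.56 and 5.74 CPM in the TETi76 libraries, against 17.4 and 16.1 CPM in the DMSO libraries (log2 -1.57, SE 0.16, adjusted p = 2.03e-06). PTPN3, a tyrosine phosphatase, had 11.3 and 12.2 CPM, against 30.2 and 29.1 CPM (log2 -1.33, SE 0.14, adjusted p = 1.91e-06). NREP, a small protein linked to neuronal regeneration, had 36.0 and 37.6 CPM, against 71.0 and 75.4 CPM (log2 -0.99). The replicates of these genes lay close together and far from the other group. ART3, a member of the ADP-ribosyltransferase family (log2 -1.11), MFAP4, a microfibril protein (log2 -1.10), CPXM1, a carboxypeptidase-like protein (log2 -1.09), and MAMDC4 (log2 -0.94) fell as well. The remaining 5 were the interferon-induced MX2 and XAF1, the metallothioneins MT1H and MT1G and the granule protease CTSG. Without TETi76 replicate 1, MAMDC4 missed the threshold (adjusted p = 0.0904, the highest of 12 alternatives, the lowest being 3.05e-07); the other 11 were called in every fit that left out 1 library.

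**Figure D2:**
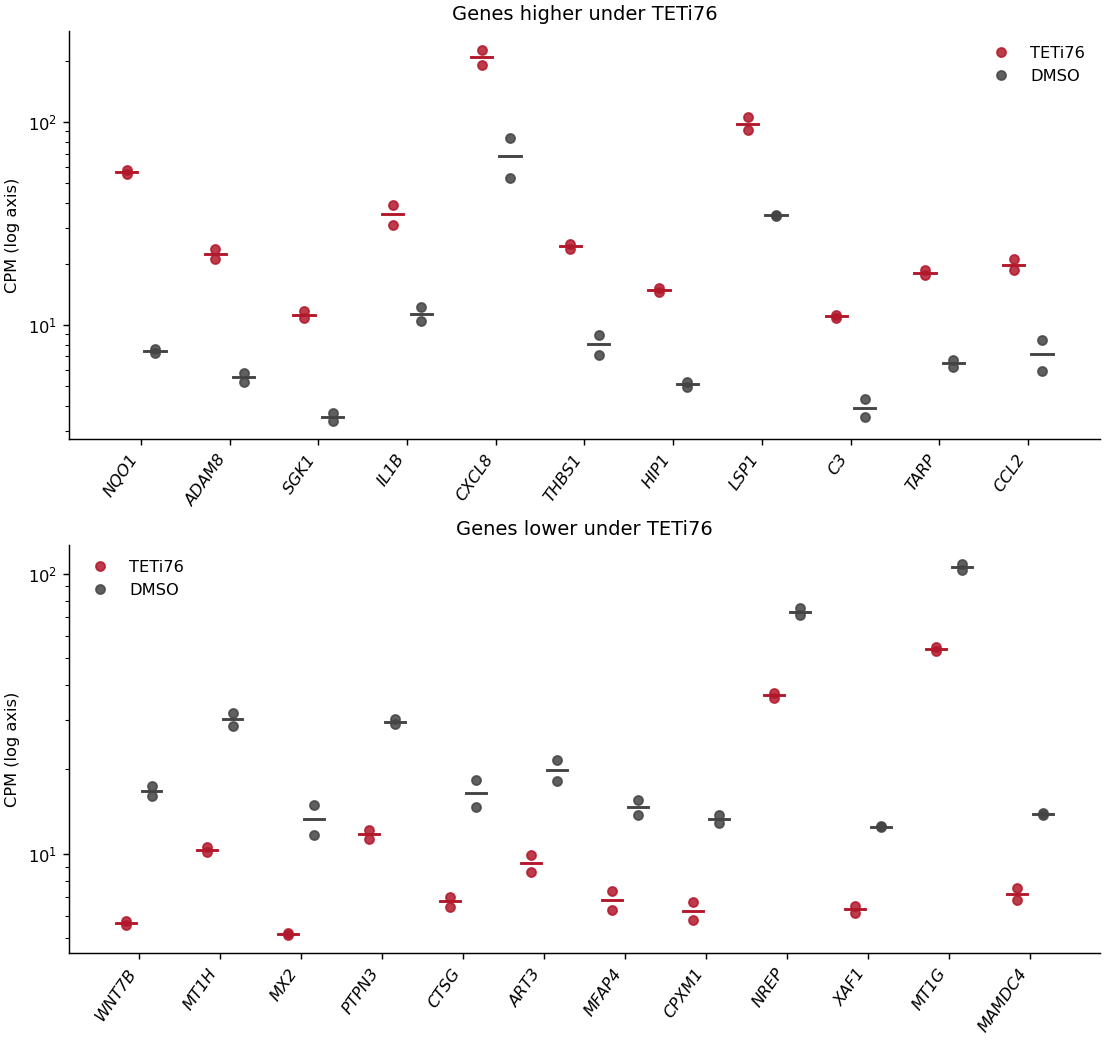
Level in CPM (log axis) of 11 of the 12 genes with the largest increase (upper panel) and of the 12 with the largest decrease (lower panel) in each of the 4 libraries. Red points are the 2 TETi76 libraries, grey points the 2 DMSO libraries and bars the group means. In each gene both TETi76 points lie on the same side of both DMSO points, which was a condition for choosing these genes.

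Genes of oxidative stress and detoxification were next examined by role. Of 25 tested enzymes and pumps that handle quinones and carbonyls, 3 rose and 0 fell (median log2 0.07). Besides NQO1 they were AKR1C1, an aldo-keto reductase, at 6.23 and 5.09 CPM under TETi76, against 1.07 and 1.77 CPM under DMSO (log2 1.97, SE 0.28, adjusted p = 9.79e-05), and the efflux pump ABCC4 (log2 0.41, SE 0.11, adjusted p = 0.0369). AKR1C1 has near-identical relatives, so its reads may be shared with them. In the fits that left out either TETi76 library, 2 of the 3 were called.

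Of 34 tested genes of glutathione, cystine and thioredoxin, 5 rose and 1 fell (median log2 -0.02). Glutathione reductase, GSR, which regenerates glutathione with NADPH, had 195 and 205 CPM under TETi76, against 110 and 118 CPM under DMSO (log2 0.81, SE 0.11, adjusted p = 3.9e-05). GCLM, the modifier subunit of the enzyme that starts glutathione synthesis, had 17.5 and 15.9 CPM, against 8.48 and 11.9 CPM (log2 0.71, SE 0.17, adjusted p = 0.0168). The gamma-glutamyltransferase GGT1 (log2 0.64), thioredoxin reductase TXNRD1 (400 and 371 CPM, against 257 and 297 CPM, log2 0.48) and sulfiredoxin SRXN1 (80.8 and 80.9 CPM, against 61.5 and 57.1 CPM, log2 0.45) rose too. The catalytic partner of GCLM, GCLC, did not pass (log2 0.33, adjusted p = 0.179), and neither did the cystine importer SLC7A11 (log2 0.31, adjusted p = 0.338), whose libraries overlapped at 60.1 and 51.0 CPM, against 37.1 and 52.6 CPM. PRDX5, a peroxiredoxin, fell at the edge of the threshold (log2 -0.38, adjusted p = 0.05). Without TETi76 replicate 1 or TETi76 replicate 2, GSR was the 1 member called, while 6 and 7 rose without DMSO replicate 1 and DMSO replicate 2.

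NADPH, which those reductases use, comes largely from the pentose phosphate pathway. Of 17 tested NADPH genes 3 rose and 1, IDH2, fell (median log2 0.07). PGD, a dehydrogenase of the pathway, had 357 CPM in both TETi76 libraries, against 219 and 199 CPM in the DMSO libraries (log2 0.77, SE 0.10, adjusted p = 4.24e-05). PGD was called in each fit that left out 1 library. Malic enzyme ME1 rose at a very low level, 0.962 and 0.609 CPM against 0.0537 and 0.140 CPM (log2 2.91, SE 0.76, adjusted p = 0.0295), and passed the filter through the TETi76 libraries alone. ME1 was not called by DESeq2 or without DMSO replicate 1, TETi76 replicate 1 or TETi76 replicate 2, and its adjusted p over 10 alternatives ran from 0.00407 to 0.636.

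Iron handling had 5 of 25 tested genes higher and 0 lower (median log2 0.15). The light ferritin chain FTL, part of the shell that stores iron, had 3342 and 3344 CPM under TETi76, against 1580 and 1466 CPM under DMSO (log2 1.13, SE 0.09, adjusted p = 6.31e-08). The heavy chain FTH1 had 488 and 499 CPM, against 243 and 218 CPM (log2 1.10, SE 0.10, adjusted p = 4.9e-07). Both chains have many processed pseudogenes, so their counts depend on how shared reads were assigned. The biliverdin reductase BLVRB (log2 0.64), the heme transporter SLC48A1 (log2 0.63) and the iron-sensing ligase subunit FBXL5 (log2 0.41) rose by less, and without either TETi76 library only the 2 ferritin chains were called. The transferrin receptor TFRC did not pass (440 and 438 CPM, against 476 and 514 CPM, log2 -0.17, adjusted p = 0.395). Heme oxygenase HMOX1 was too low to be tested, with 11 and 5 raw counts under TETi76 and 0 and 5 under DMSO.

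The transcripts of the NRF2 regulators were examined next. NFE2L2, which encodes NRF2, stood at 89.7 and 90.5 CPM in the TETi76 libraries, against 81.4 and 91.1 CPM in the DMSO libraries (log2 0.06, adjusted p = 0.848), and its repressor KEAP1 overlapped likewise (log2 -0.00, adjusted p = 0.994). Of 16 tested genes of this group 2 rose and 0 fell, against 2.58% called higher over all genes (median log2 0.06). They were the autophagy receptor SQSTM1, with 133 and 142 CPM against 95.4 and 92.1 CPM (log2 0.55, adjusted p = 0.00314), and OSGIN1, with 2.84 and 3.35 CPM against 0.805 and 1.30 CPM (log2 1.53, adjusted p = 0.00887). Neither was called without TETi76 replicate 1 or TETi76 replicate 2. The highest adjusted p over 12 alternatives was 0.147 for SQSTM1 and 0.148 for OSGIN1.

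Promoters of these genes were read for the letters of the antioxidant response element, TGACNNNGC, the site to which NRF2 binds. The windows ran from 250 bases before to 50 after each start in the RefSeq annotation of GRCh38.p14, and both strands were searched. Of 18 members of the preceding 5 groups that rose, 15 had a promoter in the table and 7 of these (46.7%) held a match, as did 19 of 77 members (24.7%) that were tested and not called. The share was 19.7% over all tested genes with a promoter. The 7 include ME1, which passed the filter through the TETi76 libraries alone and was not called by DESeq2. The NQO1 window held no match. Such a match can also hold the AP-1 letters TGACTCA, and it is a description of the letters and not of binding. GCLM is shown because it rose and has 1 match close to the start, beginning at position -34 (chr1:93909381-93909680, minus strand, capitals for the match):
GCLM: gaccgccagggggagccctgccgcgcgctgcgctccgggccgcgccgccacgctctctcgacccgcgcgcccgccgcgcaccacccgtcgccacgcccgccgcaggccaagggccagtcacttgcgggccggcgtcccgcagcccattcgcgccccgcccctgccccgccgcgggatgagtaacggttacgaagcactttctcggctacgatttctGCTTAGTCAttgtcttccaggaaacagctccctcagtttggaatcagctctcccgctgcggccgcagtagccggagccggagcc

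Inflammatory mediators rose in part. Of 46 listed cytokines and chemokines 21 were expressed enough to test, and 3 of these rose while 0 fell (median log2 0.17). IL1B, the pro-form of interleukin 1 beta, had 31.2 and 39.1 CPM under TETi76, against 10.47 and 12.2 CPM under DMSO (log2 1.63, SE 0.15, adjusted p = 4.9e-07). The neutrophil attractant CXCL8 had 227 and 191 CPM, against 52.8 and 83.7 CPM (log2 1.61, SE 0.22, adjusted p = 0.0112), and the monocyte attractant CCL2 had 18.6 and 21.1 CPM, against 5.96 and 8.42 CPM (log2 1.46, SE 0.17, adjusted p = 1.25e-05). The DMSO replicates of CXCL8 lay further apart than those of the other 2, yet below both TETi76 libraries. All 3 were called whichever library was left out. TNF had no count in any library.

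Among 34 tested NF-kB feedback genes and targets, 7 rose and 1 fell, with a median log2 change of 0.23. The adhesion molecule ICAM1 rose at a low level, 5.40 and 6.52 CPM against 1.45 and 1.44 CPM (log2 2.04, SE 0.26, adjusted p = 3.03e-05), and TNFAIP2 had 58.5 and 63.9 CPM under TETi76, against 30.2 and 26.4 CPM under DMSO (log2 1.11, SE 0.12, adjusted p = 5.37e-06). The adaptor TRAF1 (log2 0.92), NINJ1 (log2 0.60), the urokinase receptor PLAUR (log2 0.57), the deubiquitinase TNFAIP3 (117 and 119 CPM, against 83.1 and 81.5 CPM, log2 0.53) and CD44 (log2 0.45) rose as well. The stress gene GADD45B fell, with 5.90 and 7.22 CPM against 10.6 and 13.6 CPM (log2 -0.89, adjusted p = 0.00505). The inhibitor NFKBIA, itself an NF-kB target, overlapped between the groups (40.5 and 47.7 CPM, against 39.7 and 49.9 CPM, log2 -0.02), and the subunit RELA did not pass (log2 0.18, adjusted p = 0.468). Without TETi76 replicates 1 and 2 the higher members numbered 3 and 2, ICAM1 and TNFAIP2 in both. GADD45B missed the threshold without TETi76 replicate 1 (adjusted p = 0.268, the highest of 12 alternatives, the lowest being 1.52e-06).

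Immediate early genes, which growth and stress signals induce, rose in 7 of 32 tested members and fell in 0 (median log2 0.16). BTG2, an antiproliferative gene, had 59.4 CPM in both TETi76 libraries, against 33.4 and 38.4 CPM in the DMSO libraries (log2 0.73, SE 0.12, adjusted p = 0.000631). PHLDA1 rose at a low level, with 7.74 and 6.69 CPM against 2.25 and 3.02 CPM (log2 1.44, SE 0.23, adjusted p = 0.000355), and so did EGR2 (log2 1.51) and ZFP36L1 (log2 1.17). EGR1 (21.5 and 23.8 CPM, against 12.7 and 15.2 CPM), FOS (26.6 and 27.6 CPM, against 16.8 and 19.1 CPM) and KLF4 rose by 0.70, 0.59 and 0.47. The AP-1 partner JUN and the growth regulator MYC did not pass, JUN at log2 -0.07 (adjusted p = 0.849) and MYC at log2 -0.04 (adjusted p = 0.895). Without either TETi76 library 2 members were called, PHLDA1 and BTG2.

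MAP kinase feedback genes, which ERK signalling induces and which then restrain it, rose in 4 of 23 tested members and fell in 0 (median log2 0.11). The ERK phosphatase DUSP6 had 39.4 and 43.2 CPM under TETi76, against 21.6 and 19.96 CPM under DMSO (log2 0.99, SE 0.13, adjusted p = 3.55e-05). SPRY4, an inhibitor of receptor signalling, had 43.8 and 40.7 CPM, against 24.1 and 21.1 CPM (log2 0.90, SE 0.13, adjusted p = 0.00011). These 2 and PHLDA1, which also stands in the preceding group, were called in each fit that left out 1 library. DUSP16 (log2 0.87) was not called without either TETi76 library.

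**Figure D3:**
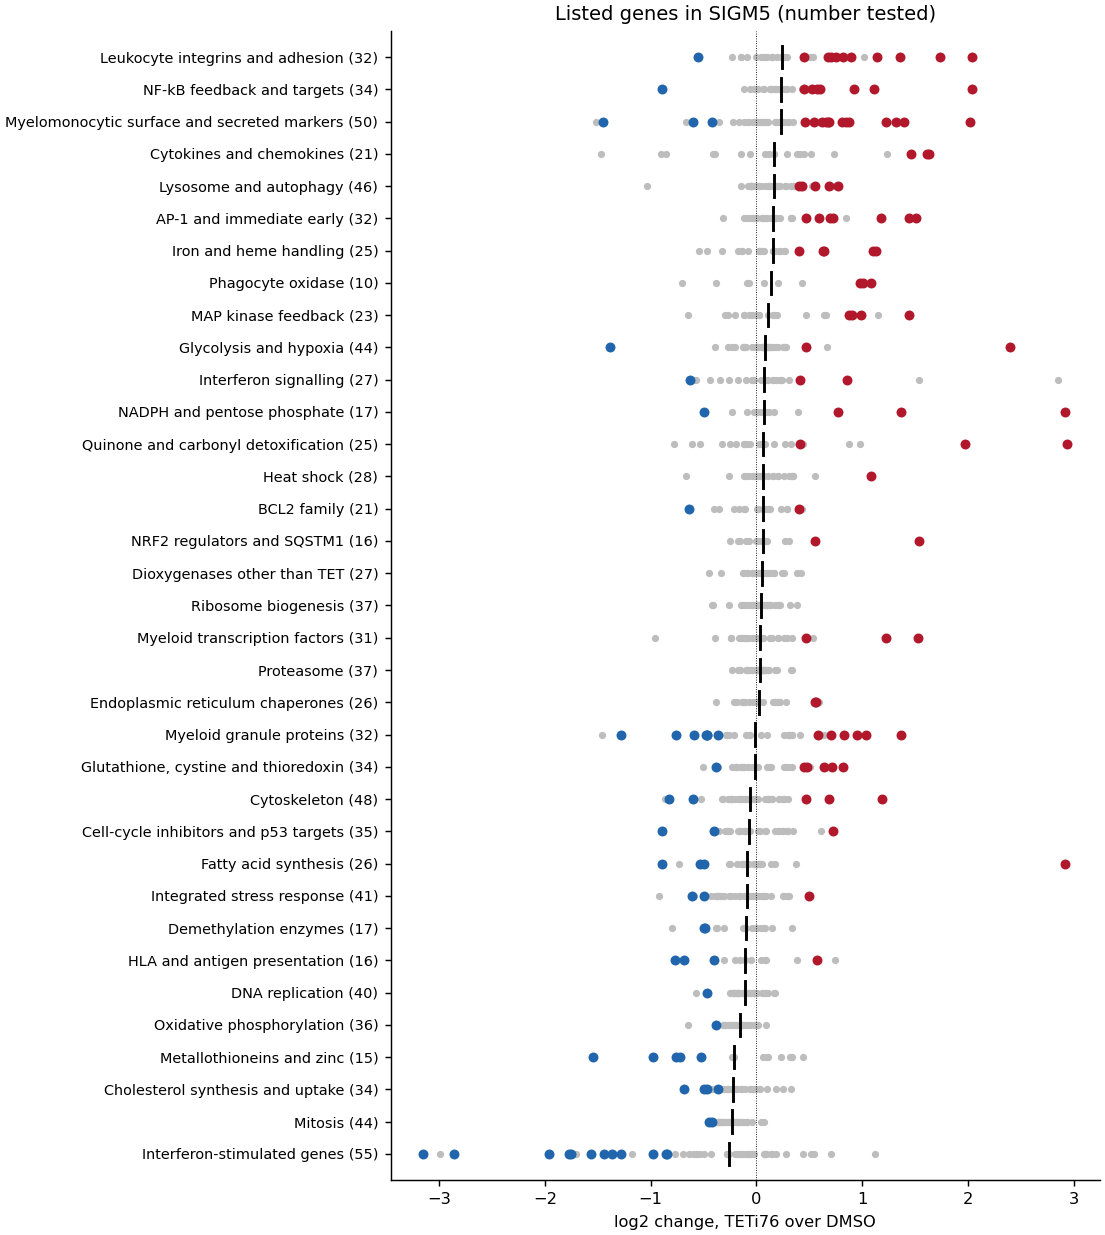
Log2 change (TETi76 over DMSO) of each tested member of 35 gene lists, ordered by the median of the list (black bar), with the number tested in brackets. Red and blue points were called higher and lower and grey points were not called. Integrin, NF-kB and myelomonocytic lists have the highest medians, and the interferon-stimulated list has the lowest, -0.26.

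Surface and secreted proteins of monocytes and macrophages rose in 13 of 50 tested members and fell in 3, with a median log2 change of 0.23. The calcium-binding protein S100A4 had 26.6 and 31.0 CPM under TETi76, against 12.1 and 12.6 CPM under DMSO (log2 1.22, SE 0.14, adjusted p = 8.73e-06). CSF1R, the receptor for macrophage colony-stimulating factor, had 16.3 and 13.4 CPM, against 8.80 and 7.44 CPM (log2 0.87, SE 0.17, adjusted p = 0.00291). The lipopolysaccharide co-receptor CD14 had 7.28 and 8.35 CPM, against 4.67 and 4.28 CPM (log2 0.80, SE 0.20, adjusted p = 0.0207). The groups overlapped in none of these, but that held for all 468 called genes.

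Besides ADAM8, further members that rose were CD68, THBD and CLEC12A, the fungal receptor CLEC7A (log2 1.32), the inhibitory receptor LILRB2 (log2 1.40), the co-stimulator CD86 (log2 0.84), the toll-like receptor TLR2 (log2 0.68) and the Fc receptor chain FCER1G (log2 0.69). CLEC5A, a receptor that signals through TYROBP, rose at a high level, 270 and 261 CPM against 158 and 178 CPM (log2 0.66, SE 0.11, adjusted p = 0.000388). The inflammation proteins S100A8 (205 and 253 CPM, against 292 and 319 CPM, log2 -0.42) and S100A12 (1.88 and 3.35 CPM, against 7.52 and 6.75 CPM, log2 -1.45) fell, as did LILRA2 (log2 -0.60). CD33, a myeloid surface marker, did not pass (log2 0.31, adjusted p = 0.163). The LILR genes resemble one another closely, so reads may be shared among them. Without TETi76 replicates 1 and 2 the higher members numbered 2 and 5 and the lower ones 0 and 2, and DESeq2 called 10 higher and 3 lower. S100A8, S100A12 and LILRA2 were not called without TETi76 replicate 1, nor was S100A8 without TETi76 replicate 2.

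Leukocyte integrins and adhesion molecules rose in 10 of 32 tested members and fell in 1 (median log2 0.24). ITGAM, the alpha chain of the complement receptor Mac-1, had 33.8 and 35.9 CPM under TETi76, against 14.4 and 12.8 CPM under DMSO (log2 1.36, SE 0.14, adjusted p = 1.31e-06). Its relative ITGAX had 8.12 and 8.65 CPM, against 2.52 and 2.51 CPM (log2 1.73, SE 0.22, adjusted p = 2.01e-05). FERMT3, the kindlin that activates integrins in blood cells, had 122 and 130 CPM, against 73.8 and 61.8 CPM (log2 0.89, SE 0.12, adjusted p = 3.44e-05). The beta chain that pairs with both alpha chains, ITGB2, was already abundant and did not pass (1301 and 1327 CPM, against 1150 and 1035 CPM, log2 0.27, adjusted p = 0.119).

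ITGB7 (log2 1.14), the receptor ADGRE2 (log2 0.82), CD58 (log2 0.75), the chemokine receptor CCR1 (log2 0.71) and ICAM3 (log2 0.68) also rose, beside ICAM1 and CD44. The selectin ligand SELPLG fell (37.5 and 37.8 CPM, against 56.5 and 53.9 CPM, log2 -0.55, adjusted p = 0.00729). Without TETi76 replicates 1 and 2 the higher members numbered 4 and 6 and SELPLG was not called; without DMSO replicates 1 and 2 they numbered 11 and 11.

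Of the 5 subunits of the phagocyte oxidase complex that were tested, 3 rose. CYBB, the catalytic subunit gp91phox, had 1529 and 1373 CPM under TETi76, against 735 and 736 CPM under DMSO (log2 0.98, SE 0.09, adjusted p = 8.57e-07). The cytosolic organiser NCF1 had 57.9 and 62.2 CPM, against 30.0 and 29.8 CPM (log2 1.01, SE 0.12, adjusted p = 1.24e-05). Both were called in each fit that left out 1 library, although NCF1 has near-identical pseudogene copies that can take its reads. The membrane partner CYBA (517 and 507 CPM, against 493 and 398 CPM, log2 0.20, adjusted p = 0.361) and NCF4 (10.7 and 12.04 CPM, against 12.9 and 11.02 CPM, log2 -0.07, adjusted p = 0.881) did not pass. In the whole list of 10 tested oxidase genes, including alternative subunits and the RAC GTPases, 3 rose and 0 fell.

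Granule proteins moved in both directions, 6 of 32 tested being higher and 7 lower (median log2 -0.01). Of 6 azurophil granule proteins 5 fell. Cathepsin G, CTSG, had 6.48 and 7.04 CPM under TETi76, against 18.4 and 14.7 CPM under DMSO (log2 -1.28, SE 0.17, adjusted p = 3.9e-05). Azurocidin AZU1 had 171 and 210 CPM, against 296 and 277 CPM (log2 -0.59, adjusted p = 0.00246), neutrophil elastase ELANE had 214 and 230 CPM, against 326 and 289 CPM (log2 -0.47, adjusted p = 0.0101), and PRSS57 had 126 and 128 CPM, against 188 and 167 CPM (log2 -0.48, adjusted p = 0.0108). As in every called gene, the groups did not overlap in these. PRTN3, proteinase 3, did overlap (1335 and 1446 CPM, against 1553 and 1357 CPM, log2 -0.07, adjusted p = 0.806). Myeloperoxidase, MPO, was the most abundant called gene, with 7933 and 8813 CPM against 11710 and 9785 CPM (log2 -0.36, SE 0.10, adjusted p = 0.0336). MPO was not called by DESeq2, nor without TETi76 replicate 1, TETi76 replicate 2 or DMSO replicate 1, and its adjusted p over 12 alternatives ran from 2.5e-08 to 0.547. The bactericidal protein BPI (log2 -0.76) and CFD, the protease adipsin (log2 -0.47), also fell.

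Other granule and lysosomal proteins rose. MMP9, the gelatinase, had 31.5 and 37.0 CPM under TETi76, against 14.1 and 12.6 CPM under DMSO (log2 1.36, SE 0.14, adjusted p = 1.91e-06). CHI3L1, a chitinase-like secreted protein, had 182 and 178 CPM, against 95.7 and 90.3 CPM (log2 0.95, SE 0.11, adjusted p = 5.47e-06). The acid proteases CTSD (218 and 228 CPM, against 134 and 118 CPM, log2 0.83) and CTSZ (log2 0.70), the membrane protease MMP25 (log2 1.04) and the granule proteoglycan SRGN (3003 and 2646 CPM, against 1686 and 2093 CPM, log2 0.58) rose too. Lysozyme did not pass (LYZ log2 -0.07, adjusted p = 0.790). The higher members numbered 4 and 5, and the lower ones 1 and 2, without TETi76 replicates 1 and 2.

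Among 31 tested transcription factors of the myeloid lineage 3 rose and 0 fell (median log2 0.04). ID2, a dominant-negative partner of helix-loop-helix factors, had 13.9 and 13.95 CPM under TETi76, against 5.31 and 6.61 CPM under DMSO (log2 1.22, SE 0.17, adjusted p = 0.000101). KLF4, a monocyte factor, rose as well (35.6 and 36.4 CPM, against 24.4 and 27.5 CPM, log2 0.47, adjusted p = 0.0361). KLF4 was not called by DESeq2, with the replicate block, or without TETi76 replicate 1, TETi76 replicate 2 or DMSO replicate 1. Its log2 change over 12 alternatives ran from 0.39 to 0.55. The lineage factors SPI1 (log2 0.20, adjusted p = 0.327) and CEBPA (log2 0.06, adjusted p = 0.833) did not pass.

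**Figure D4:**
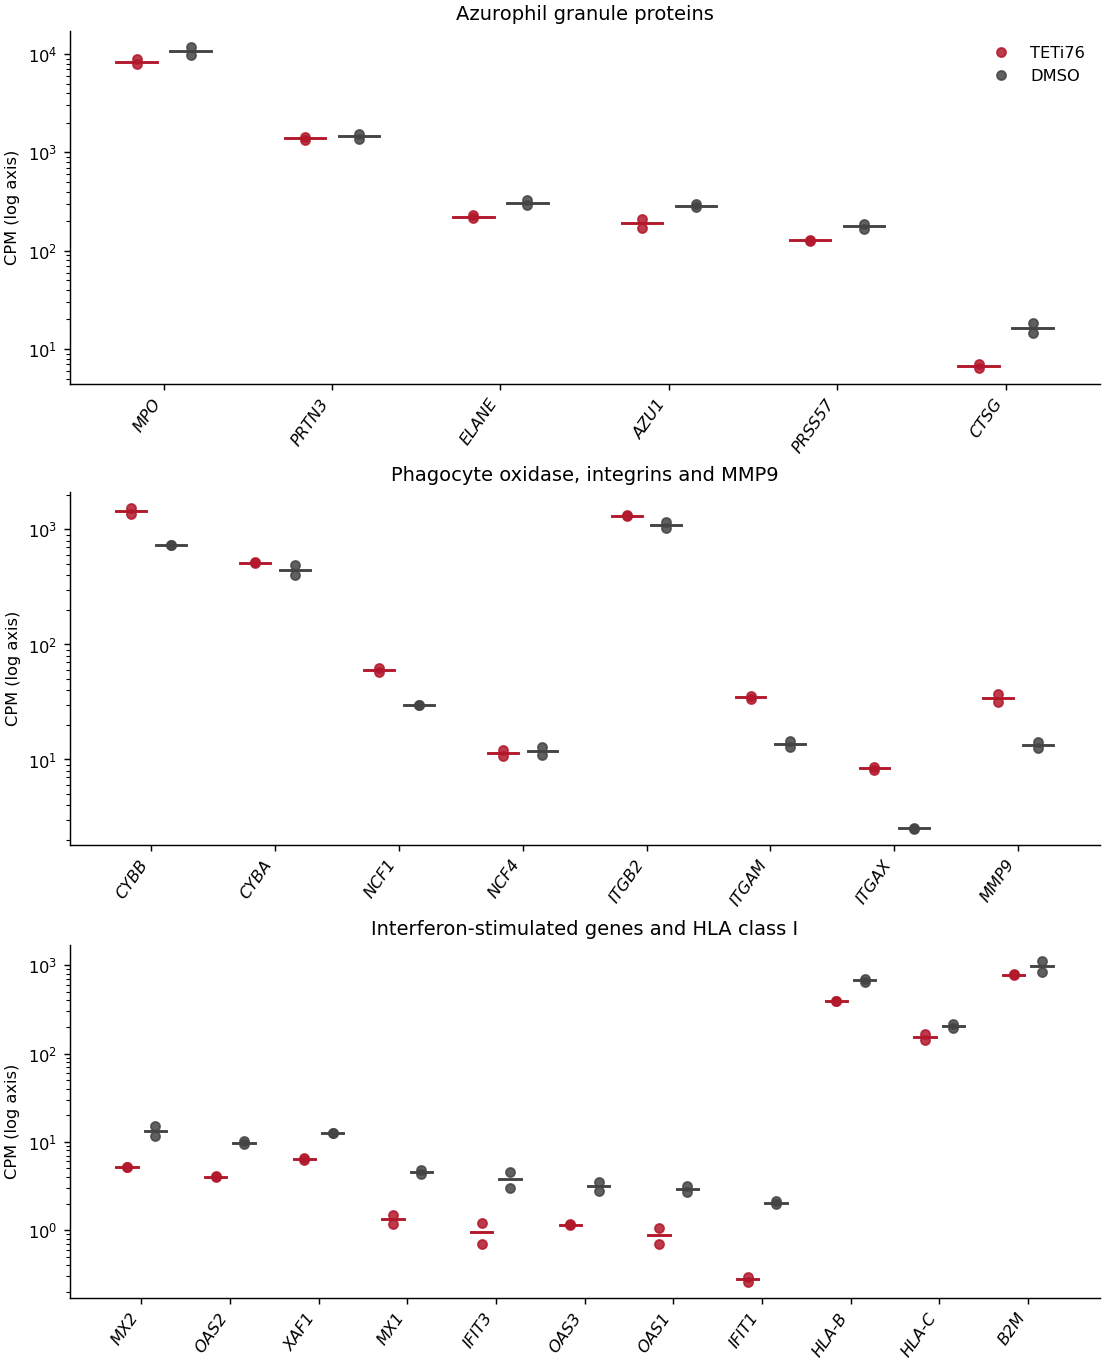
Level in CPM (log axis) of azurophil granule proteins (top), of phagocyte oxidase subunits, integrins and MMP9 (middle) and of interferon-stimulated genes and HLA class I (bottom). Red points are the 2 TETi76 libraries, grey points the 2 DMSO libraries and bars the group means. PRTN3 and NCF4 overlap between the groups, while CTSG lies lower, CYBB higher and IFIT1 lower under TETi76.

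Interferon-stimulated genes fell under TETi76 in 12 of 55 tested members, and 0 rose (median log2 -0.26, 40 negative values). MX2, a restriction factor against viruses, had 5.15 and 5.22 CPM under TETi76, against 11.6 and 14.98 CPM under DMSO (log2 -1.36, SE 0.18, adjusted p = 4.51e-05). OAS2, a sensor of double-stranded RNA, had 4.10 and 3.96 CPM, against 9.45 and 10.1 CPM (log2 -1.28, SE 0.19, adjusted p = 0.000175). XAF1, a promoter of apoptosis, had 6.53 and 6.17 CPM, against 12.6 and 12.5 CPM (log2 -0.98, SE 0.17, adjusted p = 0.00094). In OAS2 and XAF1 the replicates lay close together, whereas the DMSO replicates of MX2 lay further apart. In each of these genes the groups lay apart.

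Lower in level, MX1 had 1.17 and 1.48 CPM, against 4.78 and 4.28 CPM (log2 -1.77, adjusted p = 0.000408), and IFIT3, which binds foreign RNA together with its relatives, had 1.21 and 0.695 CPM, against 4.51 and 3.02 CPM (log2 -1.96, adjusted p = 0.00118). IFIT1 had 0.293 and 0.261 CPM, against 2.15 and 1.95 CPM (log2 -2.86, SE 0.47, adjusted p = 0.000503). OAS1 (log2 -1.75), OAS3 (log2 -1.44), the deISGylase USP18 (log2 -1.57), SAMD9L (log2 -0.85), HELZ2 (log2 -0.84) and IFI44L (log2 -3.15) made up the rest. IFIT1 and IFI44L passed the filter through the DMSO libraries alone, so a difference was built into their being tested, and DESeq2 called neither. The IFIT, MX and OAS families together had 7 of 10 members lower and 10 negative values. Without TETi76 replicates 1 and 2 the list had 8 and 6 lower members, DESeq2 called 8, and without a filter on low counts 16 were lower and 2 higher.

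Of 27 tested genes of interferon signalling, 2 rose and 1 fell, against 4.13% called over all genes (median log2 0.07). TLR8, an endosomal receptor for single-stranded RNA, had 35.8 and 32.5 CPM under TETi76, against 17.9 and 19.9 CPM under DMSO (log2 0.85, SE 0.13, adjusted p = 0.000279), and the receptor chain IFNAR1 rose slightly (log2 0.42, adjusted p = 0.0359). TMEM173, which encodes the DNA-sensing adaptor STING, fell, with 57.2 and 65.4 CPM against 99.4 and 89.9 CPM (log2 -0.63, SE 0.12, adjusted p = 0.00185). The factors IRF7 (7.28 and 8.52 CPM, against 13.6 and 10.2 CPM, log2 -0.59, adjusted p = 0.0669), IRF9 (log2 -0.57, adjusted p = 0.105) and STAT2 (log2 -0.35, adjusted p = 0.116) did not pass. TLR8 was called whichever library was left out; IFNAR1 was not called without either TETi76 library, and TMEM173 was not without TETi76 replicate 1.

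HLA class I genes, which interferon also induces and which present peptides to T cells, fell from a high level. HLA-B had 390 and 397 CPM under TETi76, against 698 and 647 CPM under DMSO (log2 -0.77, SE 0.10, adjusted p = 2.25e-05). HLA-C had 167 and 143 CPM, against 217 and 193 CPM (log2 -0.40, SE 0.11, adjusted p = 0.041). The shared light chain B2M did not pass (795 and 773 CPM, against 836 and 1106 CPM, log2 -0.31, adjusted p = 0.158). CD74, the invariant chain of class II, rose, with 194 and 235 CPM against 150 and 138 CPM (log2 0.57, adjusted p = 0.00376). In all, 3 of 16 tested antigen presentation genes fell and 1 rose (median log2 -0.11). HLA genes share long sequences and vary between alleles, and HLA-E, HLA-F and HLA-G had no count in any library, so these levels depend on how reads were mapped. CD74 was not called without TETi76 replicate 2, and HLA-C not without TETi76 replicate 1, TETi76 replicate 2 or DMSO replicate 1.

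The promoters of the interferon-stimulated genes were read for the interferon-stimulated response element, searched on both strands as GAAA, any 2 bases and GAAA again, in the same RefSeq windows. Of the 12 members that fell, 9 had a promoter in the table and 5 of these (55.6%) held a match. So did 26 of 34 tested members (76.5%) that were not called, against 4.09% of all tested genes. The element is thus common to the list whether or not a member fell. The 5 include IFIT1 and IFI44L, which passed the filter through the DMSO libraries alone. IFIT1 and OAS3 are shown because both fell and each has 2 matches, IFIT1 at -116 and -103 (chr10:89392373-89392672, plus strand) and OAS3 at -143 and -12 (chr12:112938224-112938523, plus strand), in capitals:
IFIT1: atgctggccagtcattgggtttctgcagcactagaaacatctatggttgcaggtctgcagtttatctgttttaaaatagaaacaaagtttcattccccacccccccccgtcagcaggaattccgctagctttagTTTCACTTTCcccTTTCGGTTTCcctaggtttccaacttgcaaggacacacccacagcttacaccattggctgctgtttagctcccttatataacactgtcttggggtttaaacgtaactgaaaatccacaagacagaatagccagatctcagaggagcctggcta
OAS3: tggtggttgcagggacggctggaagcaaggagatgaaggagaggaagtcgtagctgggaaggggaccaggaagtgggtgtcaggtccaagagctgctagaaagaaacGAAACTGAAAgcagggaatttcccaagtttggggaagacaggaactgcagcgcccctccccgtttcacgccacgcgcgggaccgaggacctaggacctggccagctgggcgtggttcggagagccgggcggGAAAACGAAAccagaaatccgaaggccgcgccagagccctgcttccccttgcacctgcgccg

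Metallothioneins, small cysteine-rich proteins that bind zinc and copper, fell as a family. Of 6 tested members 5 were lower and 0 higher, with a median log2 change of -0.74. MT1H had 10.6 and 10.1 CPM under TETi76, against 28.5 and 31.9 CPM under DMSO (log2 -1.54, SE 0.14, adjusted p = 4.9e-07). MT1G had 52.8 and 54.6 CPM, against 103 and 108 CPM (log2 -0.98, SE 0.11, adjusted p = 6.05e-06), and MT2A had 37.3 and 36.9 CPM, against 60.0 and 65.5 CPM (log2 -0.76, SE 0.12, adjusted p = 0.000293). MT1F (log2 -0.72) and MT1E (log2 -0.52) fell as well, whereas MT1X did not pass (76.1 and 69.5 CPM, against 82.8 and 86.4 CPM, log2 -0.22, adjusted p = 0.344). MT1M had 0 counts in both TETi76 libraries and 7 and 5 in the DMSO libraries, below the filter. The genes are near-identical neighbours, so reads may be shared among them. Of the 15 tested genes of the wider list, which adds zinc transporters and the regulator MTF1, the same 5 fell and 0 rose. Without either TETi76 library 3 were called, MT1H, MT1G and MT2A.

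The letters of the metal response element, TGCACNC or TGCGCNC on both strands, were frequent in the promoters at hand. MT1H and MT2A were the called metallothioneins with a promoter in the table, and each window held 8 matches. The short motif occurs at least once in 46.4% of the promoters of all tested genes. Both sequences are given for comparison, MT1H at chr16:56669564-56669863 and MT2A at chr16:56608334-56608633, on the plus strand of GRCh38.p14 with the matches in capitals:
MT1H: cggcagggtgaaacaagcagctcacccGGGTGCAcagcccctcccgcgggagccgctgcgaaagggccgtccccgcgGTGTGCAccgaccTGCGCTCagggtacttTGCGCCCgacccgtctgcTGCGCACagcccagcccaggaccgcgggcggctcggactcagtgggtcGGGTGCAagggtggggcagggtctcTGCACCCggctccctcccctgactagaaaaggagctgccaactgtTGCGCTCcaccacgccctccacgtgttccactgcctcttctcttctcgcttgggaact
MT2A: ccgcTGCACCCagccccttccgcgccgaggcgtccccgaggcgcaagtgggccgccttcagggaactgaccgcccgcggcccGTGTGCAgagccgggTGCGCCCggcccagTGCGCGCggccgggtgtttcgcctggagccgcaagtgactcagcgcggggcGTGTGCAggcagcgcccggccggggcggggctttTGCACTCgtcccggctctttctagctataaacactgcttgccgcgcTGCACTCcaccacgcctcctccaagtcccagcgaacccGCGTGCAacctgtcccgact

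Lipid synthesis genes were lower in part. Of 34 tested genes of cholesterol synthesis and uptake 4 fell and 0 rose, and the median log2 change was -0.23. FDPS, which makes farnesyl diphosphate, had 183 and 191 CPM under TETi76, against 305 and 298 CPM under DMSO (log2 -0.69, SE 0.10, adjusted p = 0.000161). ACAT2 (log2 -0.50), lanosterol synthase LSS (98.5 and 103 CPM, against 146 and 132 CPM, log2 -0.47) and squalene synthase FDFT1 (log2 -0.36) fell too. The regulator SREBF2 did not pass (log2 -0.27, adjusted p = 0.167). Without either TETi76 library FDPS alone was called, and without DMSO replicates 1 and 2 the count was 7 and 11.

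Among 26 tested genes of fatty acid synthesis and use 3 fell, all of them desaturases, and 1, ME1, rose (median log2 -0.09). FADS2, the delta-6 desaturase, had 197 and 217 CPM under TETi76, against 409 and 358 CPM under DMSO (log2 -0.89, SE 0.11, adjusted p = 1.17e-05). The stearoyl desaturase SCD had 431 and 422 CPM, against 633 and 601 CPM (log2 -0.53, SE 0.10, adjusted p = 0.00145), and FADS1 had 99.5 and 99.3 CPM, against 141 and 140 CPM (log2 -0.50, SE 0.11, adjusted p = 0.00734). Replicates differed little in all 3. FADS2 alone was called without either TETi76 library.

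Of 44 tested mitotic genes 2 fell and 0 rose, against 4.13% called over all genes. A negative value was seen in 42 (median log2 -0.23), against 5649 of the 11340 genes. Both TETi76 libraries were below both DMSO libraries in 30 of the 44, against 2603 of the 11340 genes. The mitotic cyclin CCNB1 had 147 and 152 CPM under TETi76, against 202 and 197 CPM under DMSO (log2 -0.42, SE 0.10, adjusted p = 0.0223), and the kinesin KIF4A had 51.6 and 50.8 CPM, against 72.5 and 67.2 CPM (log2 -0.45, SE 0.11, adjusted p = 0.0251). The proliferation marker MKI67 overlapped (221 and 203 CPM, against 223 and 180 CPM, log2 0.07, adjusted p = 0.827). The 2 calls were lost with the replicate number as a block and without either TETi76 library, whereas 16 and 9 members fell without DMSO replicates 1 and 2. Of 40 tested DNA replication genes 1 fell, the helicase subunit MCM7 (370 and 401 CPM, against 561 and 502 CPM, log2 -0.47, adjusted p = 0.00776), and 0 rose (median log2 -0.11). MCM7 was not called without TETi76 replicate 1 or TETi76 replicate 2.

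Cell-cycle inhibitors and p53 targets had 1 of 35 tested members higher, BTG2, and 2 lower, GADD45B and the repair factor DDB2 (log2 -0.40, adjusted p = 0.0435), with a median log2 change of -0.07. The inhibitor CDKN1A did not pass (393 and 421 CPM, against 345 and 318 CPM, log2 0.30, adjusted p = 0.105). In the BCL2 family, 1 of 21 tested genes rose and 1 fell (median log2 0.06), and both encode death-promoting BH3-only proteins. Beside the counts of these 2 lists, 4.13% were called over all genes. BCL2L11, which encodes BIM, had 118 and 117 CPM under TETi76, against 85.2 and 92.8 CPM under DMSO (log2 0.40, SE 0.11, adjusted p = 0.0362). BMF had 29.9 and 32.9 CPM, against 50.4 and 47.6 CPM (log2 -0.64, SE 0.12, adjusted p = 0.00261). The survival genes MCL1 (log2 0.10, adjusted p = 0.670) and BCL2 (log2 0.02, adjusted p = 0.970) did not pass. BCL2L11 and DDB2 were not called without either TETi76 library, without DMSO replicate 1 or with the replicate block, and BMF was not without TETi76 replicate 1.

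Of 41 tested genes of the integrated stress response 1 rose and 2 fell, against 4.13% called over all genes (median log2 -0.09). The amino acid transporter SLC7A5 had 489 and 494 CPM under TETi76, against 379 and 316 CPM under DMSO (log2 0.50, SE 0.10, adjusted p = 0.00604), while ATF5 (18.5 and 26.9 CPM, against 34.5 and 34.6 CPM, log2 -0.61) and asparagine synthetase ASNS (log2 -0.49) fell. The central factor ATF4 did not pass (316 and 402 CPM, against 427 and 459 CPM, log2 -0.30, adjusted p = 0.149). Of 26 endoplasmic reticulum genes 2 rose and 0 fell, HERPUD1 (log2 0.56) and DNAJC3 (log2 0.55), with a median of 0.02. Of 28 heat-shock genes 1 rose, HSPA1B, at 5.48 and 3.22 CPM against 2.20 and 1.91 CPM (log2 1.09, adjusted p = 0.0339), and 0 fell (median log2 0.06). HSPA1B is almost identical to HSPA1A and DESeq2 did not call it. Without TETi76 replicate 1, 0 members of these 3 lists were called.

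Lysosome and autophagy genes rose in 5 of 46 tested members and fell in 0 (median log2 0.16). Prosaposin, PSAP, the precursor of lysosomal sphingolipid activators, had 404 and 412 CPM under TETi76, against 244 and 234 CPM under DMSO (log2 0.77, SE 0.10, adjusted p = 3.17e-05). TFEB, the transcription factor that drives lysosomal genes, had 10.6 and 10.3 CPM, against 6.98 and 6.001 CPM (log2 0.69, SE 0.18, adjusted p = 0.0256). The proton pump subunit ATP6V1B2 had 505 and 500 CPM, against 372 CPM in both DMSO libraries (log2 0.43, SE 0.10, adjusted p = 0.00989), and SQSTM1 rose too. Without either TETi76 library PSAP alone was called. The count was 10 and 9 without DMSO replicates 1 and 2 and 11 without a filter on low counts.

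In the proteasome list edgeR called 0 of 37 tested genes, with 2 at an unadjusted p under 0.05, and DESeq2 called 0 (median log2 0.03). PSMA7 had 420 and 460 CPM under TETi76, against 453 and 455 CPM under DMSO, and PSMD2 had 431 and 437 CPM, against 424 and 396 CPM. Ribosome biogenesis gave 0 calls of 37 by edgeR and by DESeq2, with 4 at an unadjusted p under 0.05 (median log2 0.04), and the nucleolar proteins NCL (2718 and 2762 CPM, against 2799 and 2663 CPM) and NPM1 (1777 and 1783 CPM, against 1788 and 1955 CPM) did not pass. Beside the unadjusted counts of these 2 lists, 1893 of all 11340 genes had an unadjusted edgeR p under 0.05. Oxidative phosphorylation had 1 of 36 tested subunits lower, NDUFB8 of complex I (166 and 194 CPM, against 237 and 231 CPM, log2 -0.38, adjusted p = 0.0474), and 0 higher. Of those 36, 33 had a negative change (median log2 -0.15) and 22 were lower in both TETi76 libraries than in both DMSO libraries. Over all genes 4.13% were called, and 2603 of 11340 were lower without overlap. NDUFB8 was not called without TETi76 replicate 1 or TETi76 replicate 2, with the filter of 1 CPM or with the replicate block. The number of lower members was 0 and 1 without TETi76 replicates 1 and 2, and 4 and 7 without DMSO replicates 1 and 2.

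In glycolysis and hypoxia 2 of 44 tested genes rose and 1 fell, against 4.13% called over all genes (median log2 0.08). Pyruvate kinase PKM had 1866 and 1855 CPM under TETi76, against 1407 and 1280 CPM under DMSO (log2 0.47, SE 0.09, adjusted p = 0.00316). The hormone ADM (log2 2.39) was among the 2 that rose, at 1.09 and 0.782 CPM under TETi76, against 0.0537 and 0.279 CPM under DMSO, and passed the filter through the TETi76 libraries alone. The hexokinase HK3 fell at a low level (log2 -1.38), and DESeq2 called neither ADM nor HK3. Without either TETi76 library 0 members were called. In the cytoskeleton 3 of 48 rose and 2 fell (median log2 -0.06). Gelsolin, GSN, which severs actin filaments, had 9.08 and 9.52 CPM, against 4.29 and 3.91 CPM (log2 1.18, SE 0.19, adjusted p = 0.000477), and the annexins ANXA1 (log2 0.69) and ANXA5 (log2 0.47) rose. The tubulins TUBA1A (101 and 102 CPM, against 152 and 156 CPM, log2 -0.60) and TUBB3 (log2 -0.83) fell. Without either TETi76 library GSN alone was called.

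The most abundant called genes, other than MPO, FTL and SRGN, were the ribosomal proteins RPL7 and RPL3 and the chromatin-associated PTMA. RPL7 had 4002 and 4151 CPM under TETi76, against 5336 and 5010 CPM under DMSO (log2 -0.34, SE 0.09, adjusted p = 0.0237). RPL3 had 3612 and 3909 CPM, against 4903 and 4475 CPM (log2 -0.32, SE 0.09, adjusted p = 0.046), and PTMA had 2785 and 3049 CPM, against 3514 and 4033 CPM (log2 -0.37, SE 0.09, adjusted p = 0.0235). All 3 have many processed pseudogenes. Without TETi76 replicate 1 or TETi76 replicate 2, 0 of the 3 were called, and over 12 alternatives the adjusted p ran up to 0.400 for RPL7, 0.643 for RPL3 and 0.508 for PTMA.

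To see where the SIGM5 response differed from that of another line, its effects were set against those of TETi76 in K562 K01, which were called in 23.3% of 12527 genes tested (9.61% higher and 13.7% lower). The K01 call count of 2921 fell to between 1671 and 1801 without any 1 of its 4 libraries. Of the SIGM5 genes called here, 320 were tested in both lines. Of the 194 that were higher in SIGM5, 75 were also called higher in K01 and 18 lower, and these 75 were among 1025 genes called higher in K01. Of the 126 that were lower, 55 were also called lower in K01 and 9 higher, and the 55 were among 1417 called lower in K01. The difference between the lines, fitted on log2(value + 1), was called in 13% of 9740 genes and in 114 of the 320. This count of 1262 was 633 without SIGM5 TETi76 replicate 1, 779 without SIGM5 TETi76 replicate 2 and 840 without K01 DMSO replicate 2.

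The genes compared next, other than the TETs, were named for their large SIGM5 change, which favours a larger effect in SIGM5. NQO1 rose in both lines and by more in SIGM5. In K01 it had 114 FPKM (fragments scaled by transcript length and library depth) in each TETi76 library, against 27.8 and 26.0 FPKM in the DMSO libraries, and the effect was 2.78 in SIGM5 and 2.04 in K01 (difference 0.74, SE 0.16, adjusted p = 0.00194). ADAM8 rose in SIGM5 and was not called in K01, where it had 2.11 and 1.94 FPKM against 2.21 and 1.41 FPKM (difference 1.72, SE 0.26, adjusted p = 0.00019). HIP1 (difference 1.24, SE 0.23, adjusted p = 0.000678) and THBS1 (difference 1.12, SE 0.26, adjusted p = 0.00654) likewise had larger effects in SIGM5. THBS1 was low in K01, at 0.974 and 0.905 FPKM under TETi76, against 0.457 and 0.523 FPKM under DMSO. With 0.1 added to the values in place of 1, its difference was not called (adjusted p = 0.318).

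C3 (difference 1.41, adjusted p = 0.00699) and CPXM1 (difference -1.31, adjusted p = 0.00741) differed too, but both lay near or below 1 FPKM in K01. Their difference was not called without K01 DMSO replicate 2 (adjusted p = 0.0586 for C3 and 0.0518 for CPXM1) or K01 TETi76 replicate 1 (0.0539 and 0.0548). Over 11 alternatives the adjusted p ran from 0.00291 to 0.148 for C3 and from 0.00346 to 0.09996 for CPXM1. For SGK1 the effect was 1.44 in SIGM5 and 2.05 in K01, and the difference did not pass (-0.62, adjusted p = 0.118). CCL2 was listed at 0 in both K01 DMSO libraries and at 2.42 and 3.51 FPKM under TETi76 (difference -0.61, adjusted p = 0.294). For CXCL8 the difference was 0.97 (adjusted p = 0.101) and passed without SIGM5 DMSO replicate 2 (adjusted p = 0.0162, from 0.0162 to 0.772 over 11 alternatives). LSP1 and MT1H were listed at 0 in these K01 libraries, and IL1B, TARP, MX2 and CTSG were too low there to be tested. For TET1, TET2 and TET3 the differences were -0.24, 0.22 and 0.24, with adjusted p-values of 0.545, 0.626 and 0.441.

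**Figure D5:**
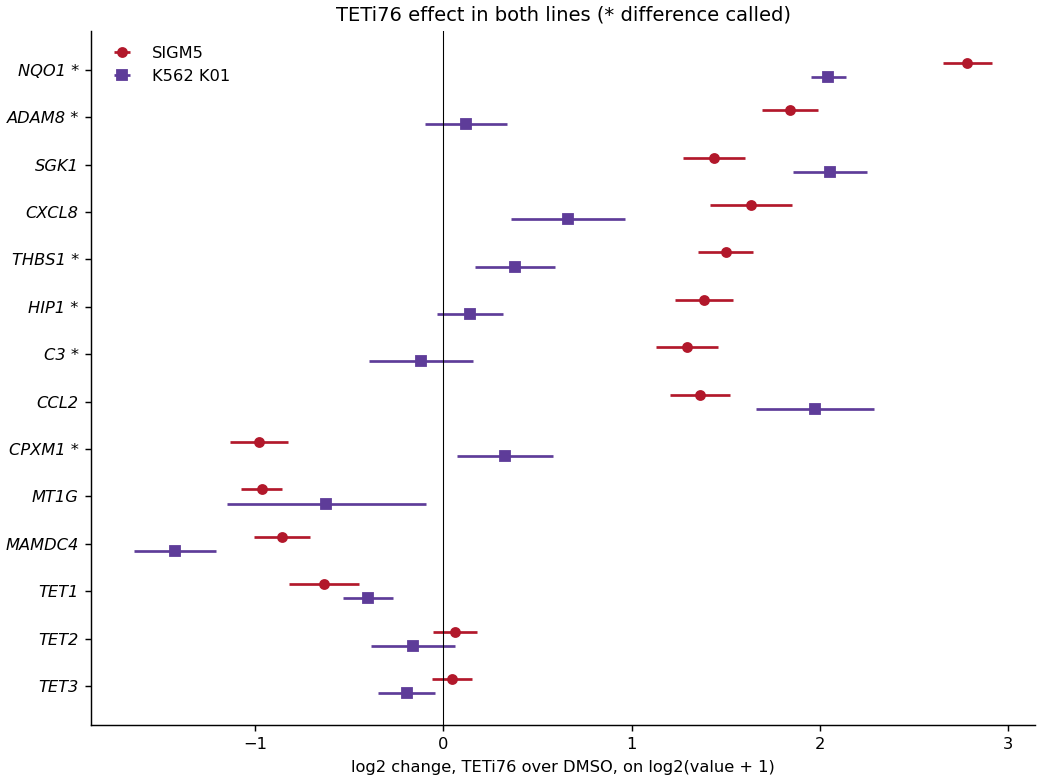
Log2 effect of TETi76 over DMSO on log2(value + 1), with value in CPM for SIGM5 (red circles) and FPKM for K562 K01 (purple squares), for the named genes tested in both lines. Bars are 1 standard error of the effect, and a star marks a called difference. NQO1 is high in both lines, whereas ADAM8 lies near 0 in K01 alone.

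Over all genes tested in both lines the effect was higher in SIGM5 in 7.61% and lower in 5.35%, and the lists below are described against these shares without a test. Of 40 integrated stress response genes tested in both, the effect was higher in SIGM5 than in K01 in 36 and lower in 0. The median log2 effect of these genes was -0.08 in SIGM5 and -1.39 in K01, where 38 fell. DNA replication genes had 16 of 40 members with a higher effect in SIGM5 and 0 with a lower one (medians -0.11 and -0.46). In mitosis 0 of 44 members had a higher and 9 a lower effect in SIGM5 (medians -0.23 and -0.03), and among 48 cytoskeletal genes 3 had a higher and 13 a lower one (medians -0.06 and 0.19). NADPH genes had 8 of 16 with a higher and 0 with a lower effect. Among 30 immediate early genes 1 had a higher and 9 a lower effect (medians 0.13 in SIGM5 and 0.72 in K01). For the interferon list 30 members could be tested in both lines, 1 with a higher and 5 with a lower effect in SIGM5 (medians -0.04 and 0.07). Only 3 of the 12 members that fell in SIGM5 were among these 30, so most of that fall was not compared between the lines.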

How the data were processed

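Poly(A) RNA of SIGM5 and K562 cells was sequenced. Per the submitters' processing notes the tools were STAR, edgeR 3.24.3 and limma 3.38.3 with build hg19; the counter and strand setting are not given in the sources used here. The deposited SIGM5 values are raw whole-number counts per gene. The deposited K562 values are scaled by gene length and depth and were read as FPKM (RPKM was not told apart); SIGM5 and K562 tables were normalized separately. Of the K562 entries, 2301 short RNAs and 26 numeric names were left out.

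SIGM5 counts were scaled by TMM, filtered with filterByExpr and tested with edgeR 4.0.16 (robust quasi-likelihood, Benjamini-Hochberg adjustment over all tested genes, threshold 0.05), under R 4.3.3. CPM values are TMM-scaled, and SE is the log2 change divided by the square root of F. K562 was tested with limma 3.58.1 on log2(FPKM + 1), with all 10 libraries in the fit, for genes with at least 1 FPKM in 2 libraries. The difference between lines was the SIGM5 minus the K01 effect on log2(value + 1), tested with limma estimates of each line's error, so its size depends on the level of a gene in each line. Alternatives were DESeq2 1.42.0, voom, other scalings and filters, a pseudocount of 0.1, blocks by replicate number and leaving out each library. Scripts were tested on simulated data. Total counts set the precision of low genes, and PCR reads are not independent molecules.

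Same-numbered replicates deviated with a correlation of -0.16, so the numbers were not taken to pair samples. Text names the 12 called genes per direction with the largest change at 10 CPM or more and no overlap between the groups. It also names the 6 most abundant called genes and the TETs. From each of 35 gene lists it names up to 4 called members per direction, or the 2 most abundant where none was called. Other members are named to complete a list's calls or for a known role, and were chosen after their values were seen. The lists and members were chosen with earlier results of these data known. Some genes that this rule names are not reported here. Listed symbols absent from the table numbered 20.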

Additional observations from a re-analysis of the deposited data

Results flagged for a closer look

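In 6 of the named genes the effect of TETi76 differed between SIGM5 and K562 K01 by the test of the difference. Over all 9740 genes tested in both lines, 13% were called. The 6 genes were named for a large change in the same SIGM5 libraries, which favours a difference between the lines. The test is therefore not separate support for their SIGM5 change. The SIGM5 effect was higher than the K01 effect by 0.74 on the log2(value + 1) scale for NQO1, 1.72 for ADAM8, 1.12 for THBS1, 1.24 for HIP1 and 1.41 for C3. For CPXM1 the difference was -1.31. NQO1 was called higher in both lines, whereas the other 5 were not called in K01. THBS1, C3 and CPXM1 lay near or below 1 FPKM in K01, and with a pseudocount of 0.1 the difference was not called for these 3 (adjusted p = 0.318 for THBS1, 0.148 for C3 and 0.09996 for CPXM1). Over 11 alternatives the adjusted p of THBS1 ran from 0.00172 to 0.318. The part of the low K01 level in these differences was not tested.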

How the results depend on the processing

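The number of called genes, 468, was 738 without a filter on low counts, of which 307 were lower under TETi76. DESeq2 called 357, of which 343 were shared with the edgeR calls. Leaving out 1 library gave 110 to 1206 called genes, 82 to 671 higher and 28 to 535 lower; the cause was not tested. For K01 the count of 2921 became 1671 to 1801, with fewer samples in the fit, and for the difference between lines 1262 became 633 to 1643.

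With the replicate block 444 genes were called, 401 of them shared. The replicate numbers did not pair the samples (correlation -0.16). A crossed pairing, added after that value was seen, gave 1291 called genes, 713 higher and 578 lower.

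Among changes of named genes, settings other than leaving out a library kept direction and side of the threshold in 1029 cases, lost the call in 32, gained it in 2 and turned the direction in 1. Leaving out a library did so in 388, 142, 1 and 5 cases. The turned values were all of uncalled genes. Leaving out 1 library, the log2 change ran from -0.117 to 0.0465 for KDM2B, from -0.112 to 0.0200 for PSMA7, from -0.0408 to 0.0429 for NCL and from -0.0101 to 0.0921 for TET3. With upper-quartile scaling the SIGM5 log2 change of NCL was -0.00405. The uncalled difference between lines of MT1G was 0.96 with a pseudocount of 0.1 and ran from -0.375 to 0.280 when 1 library was left out. Depth limits genes below about 1 CPM, such as IFI44L, IFIT1, ME1 and ADM, which rest on few counts.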

Other observations

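Cytoplasmic ribosomal proteins, a family chosen after its values were seen, were slightly lower under TETi76. Of 75 tested members 72 had a negative change (median log2 -0.21), and 7 were called lower and 0 higher by edgeR. Over all genes 5649 of 11340 had a negative change, and 1.54% were called lower. The family took 10.6% and 10.8% of all counts in the TETi76 libraries, against 12.4% and 11.99% in the DMSO libraries. Without DMSO replicates 1 and 2 the number called lower was 21 and 29, and without TETi76 replicates 1 and 2 it was 1 and 7. Many members have processed pseudogenes that can take their reads.

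GNLY, which encodes the cytotoxic granule protein granulysin and stands among the T and NK markers, fell. It had 3.51 and 3.91 CPM in the TETi76 libraries, against 6.39 and 6.65 CPM in the DMSO libraries (edgeR log2 -0.81, adjusted p = 0.0286). Megakaryocyte markers summed to 0.879 and 0.739 CPM under TETi76 and 1.23 and 1.44 CPM under DMSO, and GP1BB and PF4 had no count. Stromal, endothelial and epithelial markers summed to 33.8 and 35.7 CPM under TETi76 and 26.5 and 36.1 CPM under DMSO. Most of this was PECAM1, at 29.0 and 30.0 CPM under TETi76, against 24.9 and 28.5 CPM under DMSO.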
